A study of Mus musculus with 2 samples.

Results

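The genes described here encode 10 Polycomb group subunits: Ezh1, Ezh2, Eed, Suz12, Jarid2, Bmi1, Ring1, Rnf2, Cbx7 and Cbx8. They were chosen by name, from a written list, and each symbol was matched to 1 row of the 43346 Ensembl gene rows of each table. All 10 were found. RNA came from G1E-ER4, a mouse erythroid line without a working Gata1 gene of its own, to which a fusion of GATA1 with an estrogen receptor ligand-binding domain had been added. Both cultures were labelled as strain C57BL/6J, male, and had been given 17beta-estradiol at 10 nM for 24 h, which switches the fusion on. They form 1 group of 2 biological replicates. The labels do not name how the cultures were kept apart beyond that number, and an established subline of this kind stands for 1 origin, not for erythroid cells of several animals. No untreated library was analysed here, so the data give levels, ratios within a library and the spread between replicates, and no response to estradiol.

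Polycomb proteins keep genes silent through chromatin. Polycomb repressive complex 2 (PRC2) methylates histone H3 at lysine 27 through EZH1 or EZH2, which work only together with EED and SUZ12. Polycomb repressive complex 1 (PRC1) attaches ubiquitin to histone H2A through RING1 or RNF2 (also called RING1B), paired with a PCGF protein such as BMI1. Canonical PRC1 also carries a CBX protein that binds the methyl mark, and variant PRC1 carries RYBP or YAF2 in its place. In blood formation the complexes are known for their roles in stem cell self-renewal and for the switch from EZH2 to EZH1 as cells mature.

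The sequences below mark places where the measured transcripts of a gene part from each other, since several levels given later depend on which transcript the reads were assigned to. Coordinates are on GRCm38, the first 3 sequences run along the transcript from 5′ to 3′, the capitals mark the exon in question and the lower-case letters are the 12 neighbouring transcript bases. The 26-base first exon of Rnf2-202 (chr1:151474094-151474119, minus strand) is the only stretch of that transcript not found in Rnf2-201. The 69-base coding exon of Suz12 (exon 4 of 16 in Suz12-201, chr11:79999057-79999125, plus strand) is skipped in Suz12-206. The 126-base coding exon of Ezh2 (exon 14 of 20 in Ezh2-201, chr6:47541845-47541970, minus strand) is skipped in Ezh2-202. Exons here are those of GENCODE M21, in which Ezh2-201 has 2787 bases, against 2652 in M4, the annotation of the counts. Both skipped exons are a whole number of codons, 23 in Suz12 and 42 in Ezh2.
Rnf2-202 first exon: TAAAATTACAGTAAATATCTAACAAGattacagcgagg
Suz12 exon 4: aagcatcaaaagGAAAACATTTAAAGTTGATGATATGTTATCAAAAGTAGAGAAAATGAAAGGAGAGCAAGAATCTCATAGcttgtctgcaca
Ezh2 exon 14: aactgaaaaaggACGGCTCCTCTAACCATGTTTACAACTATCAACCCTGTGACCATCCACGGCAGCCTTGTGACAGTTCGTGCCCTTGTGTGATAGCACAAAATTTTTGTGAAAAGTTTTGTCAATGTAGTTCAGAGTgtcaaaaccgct

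The libraries held 62080996 expected counts in replicate 1 and 41051158 in replicate 2, and 16115 and 19353 genes had counts. Their counts differed by far more than sampling noise (chi-square per degree of freedom 75.8 over 12223 genes), so both were kept as separate samples. Gata1, the factor the line was built to control, stood at 60.05 and 73.23 TPM, and its row does not separate the introduced form from the chromosomal gene. All 12 erythroid markers reached 1 TPM in both libraries. Of 12 myeloid markers 1 did, Fcgr3, and the list summed to 1.46 and 2.88 TPM. No mast cell marker (0 of 7) and no lymphoid marker (0 of 8) did, against 4 of 9 megakaryocyte markers.

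TPM, the unit of level here, is a share of a library's reads after division by transcript length, and sums to the same value in each library. In bulk RNA, a low level in every cell and a high level in few cells cannot be told apart. At a threshold of 1 TPM in both libraries, 8 of the 10 subunits were expressed (80.0%), against 36.3% of all 21461 protein-coding genes of the nucleus (7781 genes). Cbx7 and Cbx8 were the exceptions. The call on Cbx7 lay at the threshold: by FPKM, by posterior mean TPM and by TPM rescaled over nuclear protein-coding genes it passed too, for 9 of 10. Rescaling multiplies TPM by 7.09 and 6.95, so a cut of 1 is looser there. FPKM also keeps the ratios within a library. Cbx7 passed 1 FPKM at 0.77 TPM in replicate 2, so that cut was looser too. The pass by posterior mean rested on 1 transcript with 0 counts, Cbx7-209, described below. The share of 36.3% was not recomputed for these measures. The median subunit stood at 9.65 TPM, above the median of 6.43 TPM over the expressed protein-coding genes. Levels ran from 21.1 TPM for Suz12 down to a few reads for Cbx8. The order of mean TPM was Suz12, Rnf2, Bmi1, Ezh2, Eed, Ezh1, Jarid2, Ring1, Cbx7 and Cbx8.

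**Figure D1:**
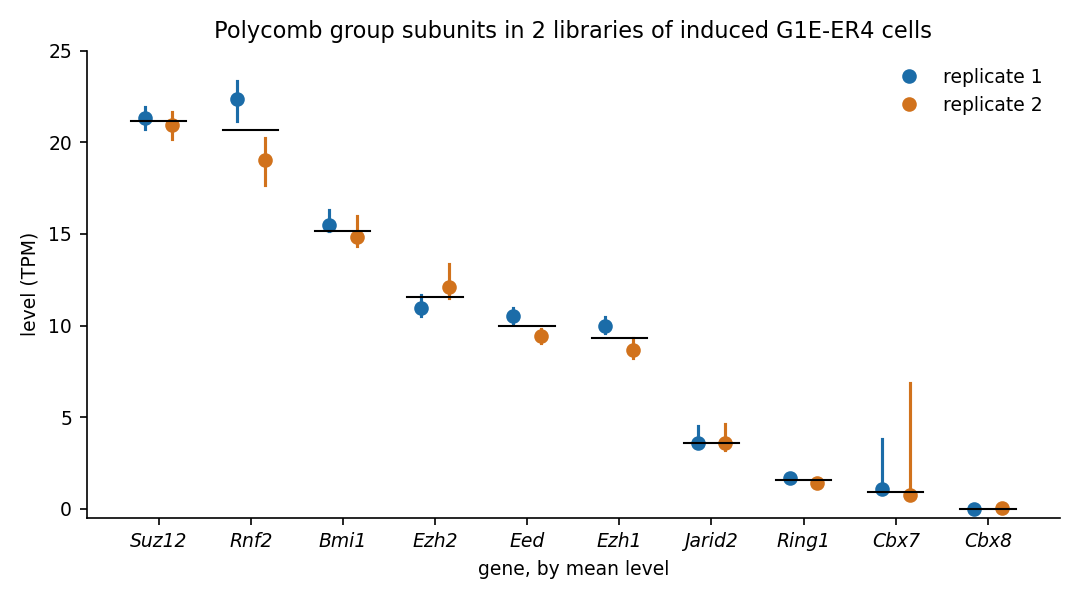
Level of each subunit in TPM (vertical axis) in replicate 1 (blue) and replicate 2 (orange); vertical lines are the deposited credible bounds and black bars the mean of both libraries. Suz12 and Rnf2 lie near 20.7 to 21.1 TPM on average, Cbx8 lies at the bottom, and the bounds of Cbx7 reach far above its points.

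Suz12, the scaffold of PRC2, was the most abundant of the core PRC2 genes by TPM (ENSMUSG00000017548.11, chr11:79993106-80034123, plus strand). It stood at 21.35 TPM in replicate 1 and 20.94 TPM in replicate 2, from 15915 and 11018 counts. The libraries were nearly level, with a mean of 21.1 ± 0.290 TPM (SD, n = 2, as for all means here), at percentile 82.8 of the expressed protein-coding genes. Eed, whose protein reads the methylated lysine and is needed for catalysis, stood at 10.53 and 9.44 TPM (ENSMUSG00000030619.8, chr7:89954654-89980983, minus strand). Suz12 exceeded Eed in both libraries, by 1.08 ± 0.09 on the log2 scale. That direction held under each of the 5 measures drawn in the plot of ratios by measure.

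Ezh2, the methyltransferase that predominates in dividing cells, was at 10.96 and 12.12 TPM, from 3937 and 2642 counts (ENSMUSG00000029687.12, chr6:47530139-47595341, minus strand). Ezh1, its paralog with weaker activity, was at 9.99 and 8.64 TPM, from 6270 and 3792 counts (ENSMUSG00000006920.10, chr11:101191115-101226463, minus strand). Ezh2 was the higher of the pair in both libraries, and neither library's credible bounds overlapped. The ratio was 1.10 in replicate 1 and 1.40 in replicate 2, or 0.31 ± 0.25 on the log2 scale. The pair was therefore close to level, and Ezh1 made up 47.7% and 41.6% of the summed TPM of both enzymes.

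How near to level the enzymes stood depended on the transcripts counted. Over protein-coding transcripts alone, Ezh2 was at 7.74 and 6.99 TPM and Ezh1 at 7.40 and 6.63 TPM, a log2 ratio of 0.07 ± 0.01. With counts divided by the effective length of the longest protein-coding transcript, a measure added after the data had been seen, the log2 ratio was 0.11 ± 0.11. Counts not divided by length gave the opposite sign, -0.60 ± 0.11 (effective length of Ezh1 3060 and 3084 bases, and of Ezh2 1751 and 1532 bases). The sum of both enzymes was 20.9 ± 0.134 TPM, which is 1.99 and 2.20 times Eed, and close to Suz12. Ezh2 was lower than Suz12 by a log2 ratio of -0.88 ± 0.12, whereas Ezh2 and Eed were not separated (0.21 ± 0.21).

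**Figure D2:**
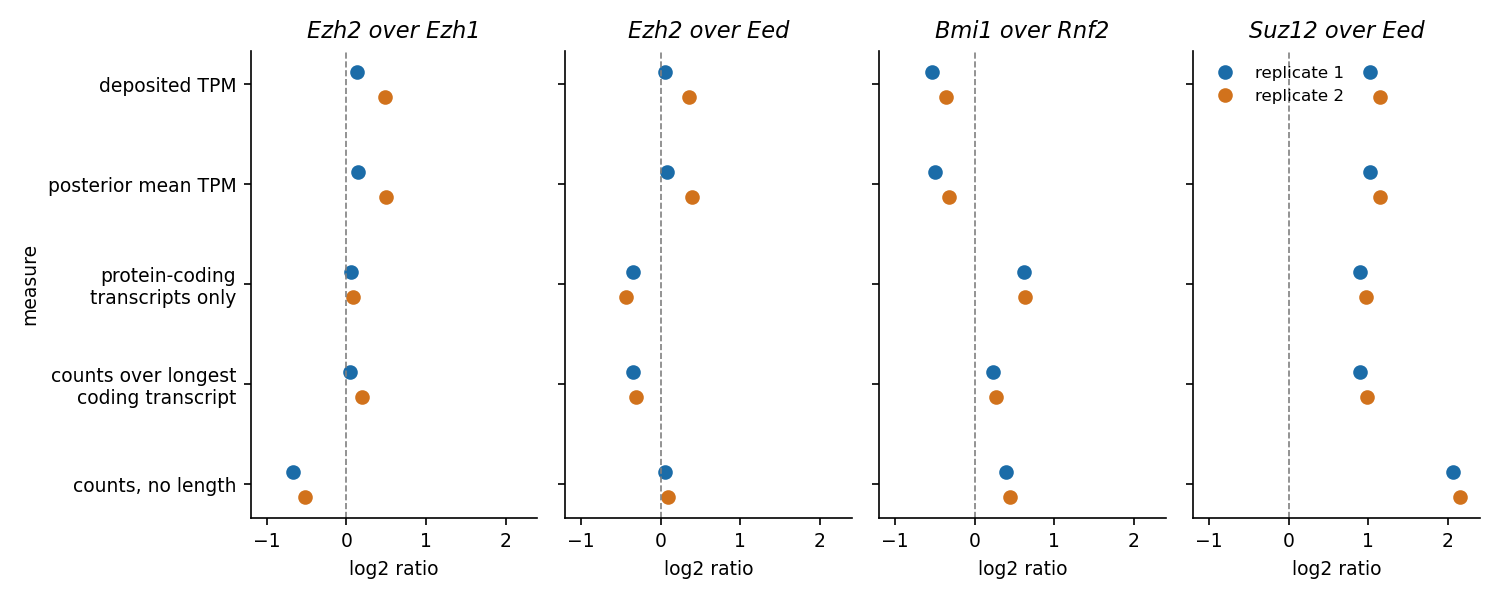
Log2 ratio of 4 pairs of subunits (horizontal axes) under 5 measures of level (rows), with replicate 1 in blue and replicate 2 in orange; the dashed line is a ratio of 1. Suz12 lies above Eed in each row, whereas Ezh2 over Ezh1 changes sign with counts (-0.60). Bmi1 over Rnf2 is negative in both TPM rows. It is positive over protein-coding transcripts only (0.63), with counts over the longest coding transcript (0.25) and with counts (0.43).

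Jarid2, an accessory subunit that helps bring PRC2 to its targets, was lower than the core genes (ENSMUSG00000038518.11, chr13:44729474-44921643, plus strand). It stood at 3.60 and 3.57 TPM, from 3338 and 1925 counts. The libraries differed little, and the mean of 3.58 ± 0.0212 TPM lay at percentile 30.3 of the expressed genes. Its log2 ratio was -2.56 ± 0.01 to Suz12, -1.68 ± 0.11 to Ezh2 and -1.04 ± 0.08 to Mtf2, a subunit of the alternative form of PRC2 that lacks JARID2. Of 8 matched histone-binding and accessory genes of PRC2, 6 reached 1 TPM in both libraries. The highest were the histone chaperones Rbbp7 (13.2 ± 2.25 TPM) and Rbbp4 (10.8 ± 0.573 TPM), then Mtf2 (7.38 ± 0.375 TPM) and Aebp2 (5.55 ± 0.686 TPM), the partner of JARID2. Rbbp4 was below Suz12 (log2 ratio -0.97 ± 0.10) and below Rbbp7 (-0.28 ± 0.17), the latter reversed to 0.85 in counts not divided by length. Phf19 was at 0.245 ± 0.134 TPM, and Epop had 0 and 1 counts.

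The catalytic subunits of PRC1 were far from level. Rnf2 stood at 22.34 and 19.03 TPM, from 6717 and 4114 counts (ENSMUSG00000026484.9, chr1:151458004-151500955, minus strand). Ring1, its paralog, stood at 1.68 and 1.42 TPM, from 657 and 385 counts (ENSMUSG00000024325.8, chr17:34020792-34024680, minus strand). Both genes were lower in replicate 2, and the pair did not overlap in either library. Rnf2 was 13.3 times Ring1 in replicate 1 and 13.4 times in replicate 2, a log2 ratio of 3.74 ± 0.01. Over protein-coding transcripts alone the log2 ratio was 2.81 ± 0.13. Ring1 held 6.99% and 6.94% of the summed TPM of the pair, and its mean of 1.55 ± 0.184 TPM lay at percentile 6.00 of expressed genes.

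Bmi1, the PCGF subunit known for self-renewal of blood stem cells, was at 15.49 and 14.81 TPM, from 8889 and 5618 counts (ENSMUSG00000026739.9, chr2:18677018-18686629, plus strand). Its level was alike in both libraries, with a mean of 15.2 ± 0.481 TPM. Pcgf2, the paralog nearest to Bmi1 in function, had 5 counts in replicate 1 and 0 in replicate 2. Bmi1 was 1363 times Pcgf2 in replicate 1, with a 95% counting interval of 584 to 4198. In replicate 2, where the floor of 3 counts stood for Pcgf2, the ratio was 862-fold. At the upper end of the exact interval of a count of 0 it was 701-fold. These intervals cover counting error only. By posterior mean TPM the ratio was smaller, with log2 values of 8.03 and 7.76 against 10.41 and 9.75. The other PCGF genes, which build variant PRC1, all reached 1 TPM: Pcgf3 at 5.30 ± 0.537, Pcgf1 at 3.78 ± 0.170, Pcgf5 at 2.10 ± 0.240 and Pcgf6 at 1.37 TPM in each library. Bmi1 held 53.9% and 55.5% of the summed TPM of the 6 PCGF genes, and exceeded Pcgf1 by 2.00 ± 0.02 on the log2 scale.

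Bmi1 was lower than Rnf2 in gene-level TPM, with a log2 ratio of -0.44 ± 0.12. Over protein-coding transcripts alone it was higher, at 0.63 (14.5 and 13.3 TPM against 9.44 and 8.58 TPM). It was also higher in counts (0.43) and in counts over the longest coding transcript (0.25). The order of this pair depended on the measure. Rnf2 ranked second among the 10 genes in TPM, and at rank 4 over protein-coding transcripts.

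Among the chromodomain subunits, Cbx7 was low and Cbx8 close to absent. Cbx7 stood at 1.10 and 0.77 TPM, from 641 and 311 counts (ENSMUSG00000053411.12, chr15:79915807-79971119, minus strand). Replicate 2 was the lower, and the mean of 0.935 ± 0.233 TPM was under the threshold. The deposited posterior mean was higher, 2.06 and 2.85 TPM, with credible bounds of 1.04 to 3.82 and 0.74 to 6.86 TPM, and ranked Cbx7 above Ring1 (1.72 and 1.47 TPM). Of that posterior mean, 41.9% and 68.5% lay in Cbx7-209, a retained-intron transcript of 148 bases with an effective length of 6 and 4 bases and 0 counts in both libraries. Without it the posterior mean of Cbx7 was 1.20 and 0.900 TPM, below Ring1 in both, and Cbx7 no longer passed the threshold; this alternative was added after the data had been seen. The span of Cbx7 overlaps that of Apobec3, on the other strand, by 100 bases, and Apobec3 had 2369 and 1464 counts. Use of strand in the counting is not stated in the labels or headers, so reads in that overlap cannot be told apart.

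Cbx8 had 0 counts in replicate 1 and 6 in replicate 2 (ENSMUSG00000025578.9, chr11:119036305-119040969, minus strand). A count of 0 allows up to 3 counts, or 0.0102 TPM, in replicate 1. Against that floor of 3 counts, Cbx7 was at least 108-fold higher than Cbx8 in replicate 1 (at least 87.6-fold at the upper end of the exact 95% interval of a count of 0). In replicate 2 it was 61.4-fold higher (counting interval 28.2 to 167). These bounds cover counting error only. By posterior mean TPM, with Cbx7-209 included, the log2 ratio was 6.69 and 5.83, against 6.75 and 5.94. Of the other CBX genes of PRC1, Cbx6 was at 0.405 ± 0.0636 TPM and Cbx2 had 0 counts in both libraries. Cbx2, Cbx6, Cbx7 and Cbx8 together summed to 1.46 and 1.23 TPM, or 2.59 and 3.50 TPM by posterior mean, of which Cbx7-209 made up 0.860 and 1.95 TPM on 0 counts. That sum was 0.0942 and 0.0832 times the TPM of Bmi1 and Pcgf2 (0.164 and 0.230 by posterior mean, and 0.110 and 0.102 by posterior mean without Cbx7-209).

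Replicates were compared after TMM scaling of the counts. Among the 9 subunits whose counts averaged 100 or more, 0 showed a 2-fold difference, against 2.10% of all genes with such counts (205 of 9777). Cbx8, with 0 and 6 counts, was too low for that count. The median absolute log2 difference was 0.13 for the 9 subunits and 0.15 over 8908 protein-coding genes. The largest was that of Cbx7, -0.46, with replicate 2 lower. In all, 7 of the 9 were lower in replicate 2, and Suz12 (0.05) and Ezh2 (0.01) were higher by small amounts. The share of all genes lower in replicate 2 is not given here, so that count has no background. The median log2 difference with its sign was -0.13 for the 9 subunits and 0.01 over the 8908 protein-coding genes. On the same scale the 12 erythroid markers were all higher in replicate 2, Klf1 by only 0.01 (28.11 and 27.56 TPM, lower in that unit). They summed to 2814 and 3816 TPM, and the part of this in the subunits' differences was not tested.

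A pair of genes was called separated in level where the log2 ratio had the same sign in both libraries and a mean larger than its SD. Of the 45 pairs among the 10 subunits, 43 were separated, a share near the 92.1% found among all pairs of expressed protein-coding genes. The neighbours that were not separated were Suz12 with Rnf2 (0.04 ± 0.14) and Ezh2 with Eed. Eed with Ezh1 (0.10 ± 0.04) and Ring1 with Cbx7 (0.75 ± 0.19) passed, although their credible bounds overlapped in both libraries. An exact two-sided sign-flip test over 2 libraries cannot go below p = 0.5, so no p is given for a pair.

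The deposited transcript tables split each gene into its annotated transcripts, some of which are not annotated as protein coding. Rnf2 stood out among the subunits in TPM: 57.7% and 54.9% of its TPM lay outside protein-coding transcripts, against a median of 17.6% over 4882 expressed genes that have such a transcript. Nearly all of this was Rnf2-202, a processed transcript of 570 bases, with 54.3% and 53.8% of TPM but 13.6% and 12.4% of counts (914 and 511 counts). Rnf2-201, the protein-coding transcript of 3160 bases, held 5700 and 3526 counts. Of the 570 bases of Rnf2-202, 544 lie within coding exons of Rnf2-201, and the 26 bases printed above in capitals are all that is its own. By counts the share of Rnf2 outside protein-coding transcripts was 13.7 ± 1.37%, against a median of 7.93%. The span of Rnf2 also overlaps that of Trmt1l, on the other strand, by 158 bases, and Trmt1l had 5449 and 3585 counts. On its own strand it overlaps Gm36527 by 3029 bases, and Gm36527 had 329 and 114 counts.

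**Figure D3:**
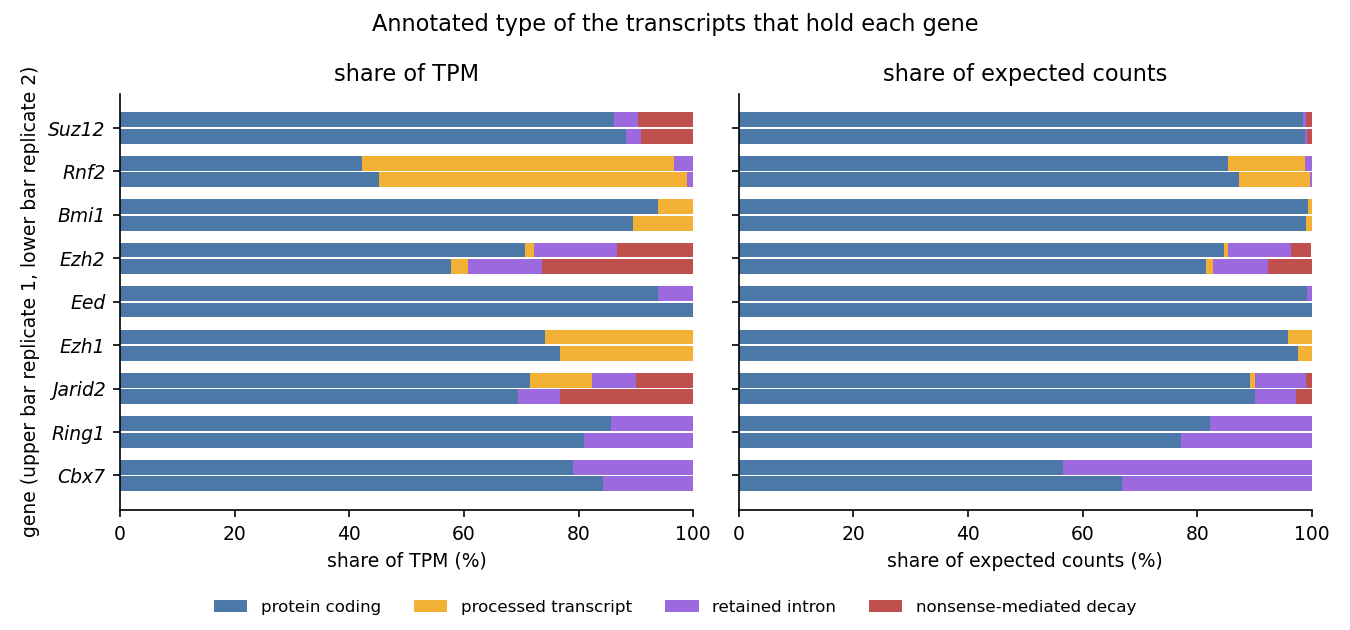
Share of each subunit's TPM (left) and expected counts (right), in percent, by annotated transcript type, with replicate 1 as the upper and replicate 2 as the lower bar; Cbx8 is left out for its few counts. Rnf2 has 57.7% and 54.9% of TPM outside protein-coding transcripts and 14.7% and 12.7% of counts, and Cbx7 has 43.4% and 33.1% of counts in a retained-intron transcript.

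Ezh2 was spread over more transcripts than the other core genes. Ezh2-201 held 35.3% and 18.2% of its TPM, and Ezh2-202, which lacks the 126-base exon shown above, held 27.2% and 25.3%. Ezh2-209, annotated as a target of nonsense-mediated decay, held 10.0% and 23.1% of TPM and had 104 and 178 counts. It has an exon of 82 bases that Ezh2-201 lacks in GENCODE M21 (chr6:47546749-47546830, minus strand). In all, 29.4% and 42.3% of the TPM of Ezh2 lay outside protein-coding transcripts, with replicate 2 the higher, and by counts 15.3% and 18.5%.

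Suz12-201 held 62.4% and 74.6% of the TPM of Suz12, and Suz12-206, without the 69-base exon, held 23.9% and 13.7%. The exon-skipping transcript was the lower in each library, from 4284 and 1662 counts. Eed was the simplest, with 93.8% and 100% of TPM in Eed-201, and Eed-202, with a retained intron, held 6.19% and 0%. For Ezh1 the libraries disagreed: Ezh1-202 had 3436 counts in replicate 1 and 243 in replicate 2, and Ezh1-203 had 2207 and 3135. These transcripts share 4193 bases and differ by 14. Jarid2-208 held 59.9% and 57.2%, and the decay transcript Jarid2-207 held 0% in replicate 1 and 22.2% in replicate 2, on 51.2 counts.

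In the PRC1 genes, Bmi1-202 held 47.5% and 45.0% and Bmi1-201 46.4% and 44.5% of the TPM of Bmi1, a near-even split in both libraries. Ring1-201 held 85.6% and 81.2%, and the retained-intron transcript Ring1-203 the other 14.4% and 18.8%. Cbx7-203 held 39.0% and 44.4% and Cbx7-202 26.8% and 16.3%. Cbx7-207, with a retained intron, held 20.9% and 15.8% of TPM but 43.4% and 33.1% of counts. All 6 counts of Cbx8 were assigned to Cbx8-201.

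The promoters of the subunits were read from RefSeq (GRCm38.p6), as windows of 300 bases from 250 before to 50 after the start. All 10 genes were matched, with 11 windows, since Jarid2 has more than 1 start. They held 17 to 41 CG dinucleotides, with a median of 24.0, and all 11 lay above the median of 7.00 over 32817 windows of that length. Over 7933 windows of expressed protein-coding genes the median was 22.0, close to that of the subunits. The windows of Suz12 and Cbx8 are shown because they stand at the top and the bottom of the order of levels; the strand is that of the gene and the capitals mark CG. The window of Suz12 (chr11:79992856-79993155, plus strand) has 41, and that of Cbx8 (chr11:119040864-119041163, minus strand) has 24, the same number as a window of Jarid2.
Suz12 promoter: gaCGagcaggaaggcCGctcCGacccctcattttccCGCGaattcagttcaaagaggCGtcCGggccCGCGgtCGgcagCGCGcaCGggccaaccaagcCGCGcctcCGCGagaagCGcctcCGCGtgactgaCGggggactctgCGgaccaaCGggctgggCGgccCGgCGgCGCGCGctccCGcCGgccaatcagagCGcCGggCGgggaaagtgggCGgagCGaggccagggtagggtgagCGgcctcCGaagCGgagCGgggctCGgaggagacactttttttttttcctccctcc
Cbx8 promoter: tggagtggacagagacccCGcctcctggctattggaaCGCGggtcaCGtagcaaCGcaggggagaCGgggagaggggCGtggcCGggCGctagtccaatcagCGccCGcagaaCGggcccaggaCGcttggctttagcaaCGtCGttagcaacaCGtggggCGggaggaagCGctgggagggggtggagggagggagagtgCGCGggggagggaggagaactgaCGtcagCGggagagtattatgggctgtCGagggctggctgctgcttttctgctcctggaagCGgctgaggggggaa
Searched on both strands, the GATA-type motif AGATAA was in 0 of the 11 windows, against 11.2% of all windows and 6.18% of those of expressed genes. The E2F-type motifs TTTGGCGC or TTTCCCGC were in 2, those of Ezh2 and Suz12, against 1.56% and 3.40%. A match is a description of these letters and not a binding site.

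The partners of the subunits in variant PRC1 were mostly expressed, with 14 of 17 at 1 TPM or more in both libraries. The highest were Csnk2b (87.0 ± 7.76 TPM) and Csnk2a1 (25.3 ± 0.516 TPM), subunits of casein kinase 2, Skp1a (46.7 ± 0.601 TPM), which also serves in ubiquitin ligases of the SCF type, and the deubiquitinase Usp7 (21.1 ± 0.141 TPM). All 4 have uses in the cell outside PRC1. Bcorl1 was at 0.220 ± 0.0424 TPM and Auts2 had 1 and 0 counts. Rybp stood at 3.34 and 2.95 TPM and Yaf2 at 2.53 and 2.37 TPM, a log2 ratio of 0.36 ± 0.06. Rybp exceeded Cbx7 by 1.77 ± 0.24 on the log2 scale, and was not separated from it by posterior mean (0.37). Without Cbx7-209 the posterior means gave 1.47 and 1.70. Their sum was 4.02 and 4.32 times that of these CBX genes, or 2.26 and 1.51 times by posterior mean, and 3.38 and 3.41 times by posterior mean without Cbx7-209. Of the PHC and SCM subunits of canonical PRC1, 3 of 6 passed: Phc3 (5.19 and 4.81 TPM), Phc2 (2.10 ± 0.0707 TPM) and Phc1 (1.58 ± 0.127 TPM), whereas Scmh1, Scml2 and Scml4 had at most 43 counts.

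The enzymes that work against the Polycomb marks were also measured, as were the trithorax and COMPASS genes. Of 3 H3K27 demethylase genes 1 passed, Kdm6a, at 10.07 and 9.99 TPM. Kdm6b was at 0.525 ± 0.0495 TPM (log2 ratio of Kdm6a to Kdm6b 4.26 ± 0.13). Uty, which lies on chromosome Y, had 0 and 2 counts, although both cultures were labelled male. Ezh1 and Kdm6a were not separated, with a log2 ratio of -0.11. Of 11 listed genes for H2A deubiquitinases and their partners in complexes, 9 passed. Not all of these products remove ubiquitin themselves. The highest were Ogt (22.7 ± 1.55 TPM), Asxl2 (13.0 ± 1.55 TPM), Usp16 (12.6 ± 3.00 TPM) and Asxl1 (10.1 ± 1.92 TPM). Mbd6 was at 0.550 ± 0.0424 TPM and Asxl3 had 0 and 8 counts. Asxl1 was below Asxl2 in gene-level TPM (log2 ratio -0.37 ± 0.10) and above it over protein-coding transcripts (0.17). Of 14 trithorax and COMPASS genes, 12 passed (85.7%, against 80.0% of the subunits). Most of their products take part in methylating H3 at lysine 4 or in removing that mark. The median of the 14 genes was 5.88 TPM. Ash2l at 18.7 ± 1.01, Kdm5a at 16.5 ± 1.36, Dpy30 at 16.4 ± 3.02 and Kdm5b at 12.3 ± 0.912 TPM were at the top. Kmt2a (0.770 ± 0.0424 TPM) and Setd1b (0.620 ± 0.0141 TPM) were at the bottom.

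Genes that Polycomb complexes are known to silence in many cell types were mostly near 0. So was the median of all nuclear protein-coding genes, at 0.0199 TPM. Of 39 HOX cluster genes 18 had 0 counts in both libraries. At 1 TPM in both libraries 2 passed (5.13%), against 36.3% of all nuclear protein-coding genes. They were Hoxb13 (5.33 and 4.32 TPM) and Hoxc4 (1.29 and 1.17 TPM), followed by Hoxc6 at 0.460 ± 0.325 TPM and Hoxc5 at 0.445 ± 0.148 TPM. Of 25 other developmental genes, with Cdkn2a and Cdkn2b among them, 14 had 0 counts in both libraries and 2 passed (8.00%). They were Pax6 (15.21 and 14.95 TPM) and Pax3 (2.43 and 2.21 TPM). Both Cdkn2a and Cdkn2b, classic targets of BMI1 and CBX7, had 0 counts in both libraries. Whether any of these genes carries a Polycomb mark in these cells was not measured here.

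**Figure D4:**
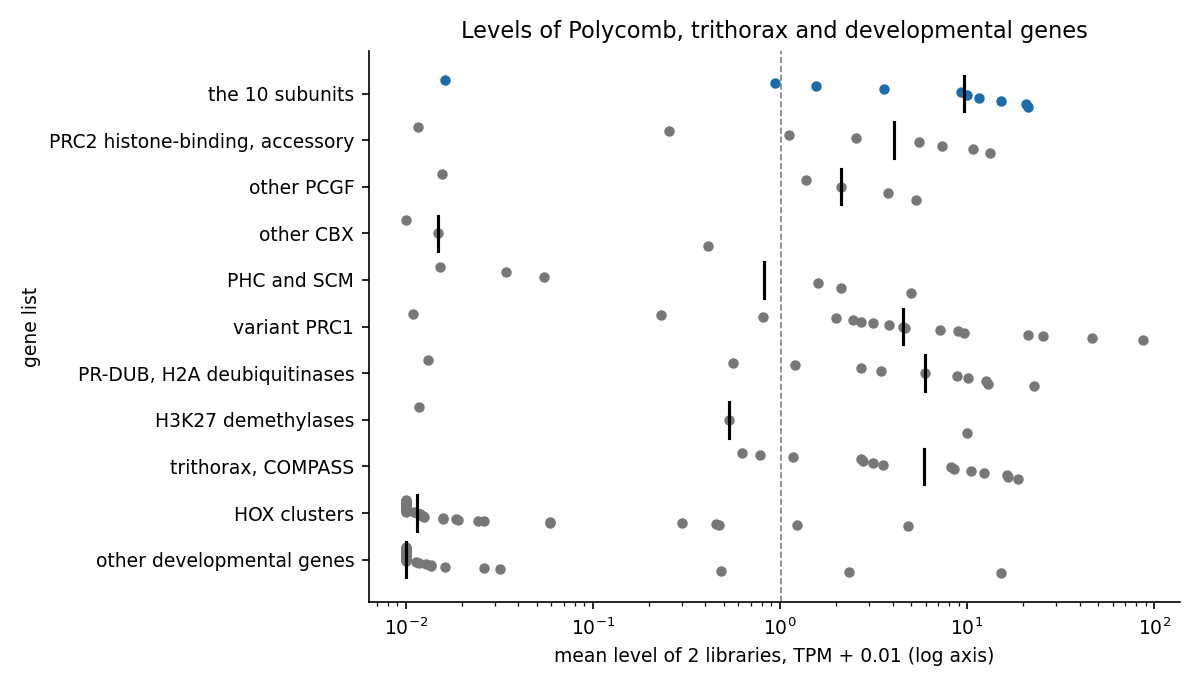
Mean level of each gene over both libraries, as TPM + 0.01 on a log axis (horizontal), by gene list (rows); each dot is a gene, black bars are list medians and the dashed line is 1 TPM. The median of the 10 subunits is 9.65 TPM, and 37 of 39 HOX genes lie left of the line.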

How the data were processed

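Total RNA from 2 cultures of G1E-ER4 cells was sequenced after removal of ribosomal RNA (ScriptSeq kit, 100 ng of RNA, fragment sizes labelled 200 to 1000). The authors deposited 1 gene and 1 transcript table per library. Expected counts, TPM and FPKM were deposited with effective lengths (another unit, in bases), per the file headers. The authors' transcript tables also hold the percent of a gene's TPM in each transcript. Credible bounds of TPM, treated as a score, were deposited without the level of the interval. Text deposited beside the tables names mm10 as assembly and GENCODE M4 as annotation. Which program and aligner were run, and whether strand was used: not given in the sources used here.

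Names, transcript types and coordinates came from GENCODE M21 on the same assembly (GRCm38), joined on versionless gene identifiers; 42462 of 43346 Ensembl rows matched, and 69 of 74 transcripts of the subunits had the same length in both releases. Rows that name no gene stayed out of totals. Values under 0.1 TPM were recomputed from count and effective length, because deposited TPM has few decimals, and a floor of 3 counts stood for a count of 0. Counting intervals are exact Poisson intervals at 95%; floors and intervals cover counting error only. Nuclear protein-coding genes take up only part of the TPM; factors of 7.09 and 6.95 rescale a value to these genes alone. Replicates were compared on CPM with TMM factors from edgeR 4.0.16 in R 4.3.3 (prior count 0.5); size factors of DESeq2 1.42.0 were an alternative. That step was also run on simulated libraries with planted changes larger than the 2-fold cut. Their spread was set in advance and not fitted to these libraries. The run therefore checked the calculation and not the error rate in these data. Other steps used Python 3.11.15 with pandas 2.3.3, numpy 2.4.6 and scipy 1.17.1.

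The genes named are the 10 subunits, every gene of 21 listed pairs, Gata1, and of each Polycomb-related list the 4 highest and up to 2 lowest; lists of 6 or fewer are named whole. Of each subunit's transcripts the 2 with the highest share are named, with any retained-intron or decay transcript at 10% or more. Marker lists of cell types are given as counts. Values of a few genes that the rule takes are not reported here. Fcgr3, Cdkn2a and Cdkn2b were named after their values were seen. Members, lists and pairs were chosen with earlier results of these data known. The replicates are samples of 1 group, so no covariate or contrast was fitted.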

Additional observations from a re-analysis of the deposited data

How the results depend on the processing

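Of 254 recomputed values, 224 kept their direction and call, or moved by less than the replicate SD, or, for counts, stayed within 1.5 times. Part of these could not come out otherwise, so their number does not measure robustness. Rescaled TPM and FPKM leave a ratio within a library as it was. With 2 libraries, leaving 1 out always moves the mean of a ratio by less than the SD. The count of subunits at 1 TPM in both libraries moved within that range from 8 to 9 by posterior mean TPM, FPKM, rescaled TPM and a threshold of 0.5 TPM, to 7 at 2 TPM and to 6 at 5 TPM; it was 8 without replicate 1 and 9 without replicate 2. By posterior mean without Cbx7-209 it was 8, and in rescaled TPM and FPKM the cut of 1 is a looser one. The alternatives were posterior mean TPM, FPKM, a pseudocount of 1 TPM, protein-coding transcripts only, counts not divided by length, other scalings, no count filter, and, chosen after seeing the data, counts over the longest coding transcript and the posterior mean without Cbx7-209. The sign reversed in 10. On counts without division by length the log2 ratio was -0.60 for Ezh2 over Ezh1, 0.43 for Bmi1 over Rnf2 and 0.85 for Rbbp4 over Rbbp7. With protein-coding transcripts only it was -0.39 for Ezh2 over Eed, 0.63 for Bmi1 over Rnf2, 0.17 for Asxl1 over Asxl2 and 0.03 for Ezh1 over Kdm6a. With counts over the longest coding transcript it was -0.33 for Ezh2 over Eed, 0.25 for Bmi1 over Rnf2 and 0.30 for Asxl1 over Asxl2. Without the filter on low counts, 1 subunit differed 2-fold between replicates, Cbx8. The share of Rnf2 outside protein-coding transcripts was 13.7% of counts, against 56.3% of TPM. That share also moved on counts for Ezh1, Ezh2, Suz12, Jarid2, Bmi1, Ring1 and Cbx7, but not for Eed. In Ezh1 it fell from 24.6% to 3.34%, whereas in Cbx7 it rose from 18.3% to 38.2%. In all, 11 values moved beyond the limits above. In 4 cases a pair became separated, and in 5 it ceased to be. These alternatives differ by construction in the transcripts or lengths used; no further cause was tested. No paired analysis was possible because there is only 1 group. Low counts limit what can be said of Cbx8, Cbx2 and Pcgf2, each with at most 6 counts in a library.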
